A study of Mus musculus with 19 samples.

Results

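The proteasome subunit genes described here were all genes on the array whose symbol begins with Psma, Psmb, Psmc, Psmd, Psme or Psmf followed by a number, taken from probe sets with 1 gene symbol. They were 45 of the 18193 genes on the array and were represented by 95 probe sets. Where a gene had several probe sets, the brightest one, by mean log2 signal over the 19 samples, stood for it. Signals were used as log2(signal + 16), and 43 of the 45 genes passed the filter, a mean log2 signal of at least 6.09. The 2 that did not were Psma8, an alpha subunit of the testis, at a mean log2 signal of 4.72, and Psmb11, the catalytic subunit of the thymus, at 4.66. Psmc3ip, a cofactor of meiotic recombination, and Psme3ip1, which encodes a binding partner of the Psme3 protein, match the naming pattern but are not parts of the proteasome, so 41 of the 43 measured genes encode subunits, chaperones or regulators of the complex. Psme2, which encodes the partner of Psme1, was not analysed here because its probe set is annotated to 2 genes.

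RNA came from the extensor digitorum longus (EDL), a hind-limb muscle built mostly of fast fibres, and each sample was measured on 1 one-colour Affymetrix array. There were 10 HSALR samples and 9 wild-type samples, from FVB mice aged 19 weeks in both groups, and the labels give no treatment. HSALR mice express, in skeletal muscle, a transgene of human skeletal actin into which an expanded CTG repeat was placed, and they serve as a model of myotonic dystrophy. All HSALR samples are labelled as 1 transgenic line, 20 b. Whether each sample is a separate animal is not in the labels, so the spread behind the p-values may be technical. The number of arrays limits the precision.

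All 8 markers of the skeletal muscle fibre were measured, and their mean log2 signal lay between 13.5 and 13.7 in HSALR samples and between 13.6 and 13.8 in wild-type samples. HSALR replicates 9 and 10 stood apart from the other arrays: their rank correlation with each other was 0.978, while the highest correlation of any other array with another lay between 0.953 and 0.969. The mean log2 signal of 14 measured macrophage markers was 1.77 and 1.82 above the wild-type mean in those samples and between -0.30 and 0.67 from it in the other 8 HSALR samples, after quantile normalization. Wild-type samples lay between -0.25 and 0.34 on this measure. HSALR replicates 1, 2, 3, 7 and 8, at 0.53 to 0.67, also lay above all wild-type samples, and replicates 4, 5 and 6 did not. The median log2 signal per array lay between 7.30 and 7.96 in HSALR samples, wider than in wild type, where it lay between 7.56 and 7.95.

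The proteasome is the complex that degrades proteins tagged with ubiquitin. Its 20S core is a stack of outer alpha rings, which gate the entry, and inner beta rings, which hold the catalytic sites. The 19S regulatory particle caps the core, with a ring of ATPases that unfold the substrate and non-ATPase subunits that bind ubiquitin and remove it. In skeletal muscle the complex breaks down myofibrillar proteins after they are marked by ubiquitin ligases, and its subunit genes can be induced together when muscle wastes.

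No proteasome gene passed the test between HSALR and wild type on the values as deposited, and the differences were small in nearly all of them. In limma with Benjamini-Hochberg adjustment over 22519 tested probe sets and a false discovery rate of 0.05, 0 of 43 members were called, against 5.42% of the 11533 genes tested (3.11% higher and 2.31% lower). Without adjustment, at p under 0.05, 5 members were higher and 2 lower in HSALR, or 7 of 43 in either direction, against 21.3% of all genes (13.8% higher and 7.47% lower). The median log2 fold of HSALR over wild type was 0.09 over the members and 0.05 over all genes. It was above 0 in 30 of 43 members, against 60.4% of all genes. The absolute log2 fold was under 0.3 in 40 of 43 members, against 81.2% of all genes, and the 95% interval lay within -0.5 and 0.5 in 39, against 69.3%. The median standard error of a log2 fold was 0.09 over the members and 0.12 over all genes. Members were also brighter, with a median of mean log2 signals of 10.8 against 8.07. These shares were not matched for signal, here or after quantile normalization. In bulk muscle, fewer cells of a type and less RNA per cell cannot be told apart.

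The level of the arrays differed as deposited, so the comparison was repeated after quantile normalization, which gives every array the same distribution of signals. There 3 members rose in HSALR (Psmd14, Psmd5 and Psmd4) and 4 fell (Psmc5, Psme1, Psmd2 and Psmd1). These 7 of 43 members stand beside 15.5% of all genes called in either direction, with 7.09% higher and 8.39% lower. By unadjusted p under 0.05, 5 members were higher, against 14.9% of all genes, and 7 lower, against 15.9%, or 12 in all, against 30.8%. The median log2 fold was then 0.03 over the members and -0.004 over all genes, and 26 of 43 members lay above 0, against 49.2% of all genes. An absolute log2 fold under 0.3 was found in 40 of 43 members, against 82% of all genes, and a 95% interval within -0.5 and 0.5 in 39, against 75.9%. The share of members called was near that background, so the count is no result about the members as a set. The genes that only share the naming pattern, Psmc3ip and Psme3ip1, had log2 folds of 0.10 and -0.02 as deposited and did not pass on either scale. The plot of log2 folds by role shows both scales for every member.

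**Figure D1:**
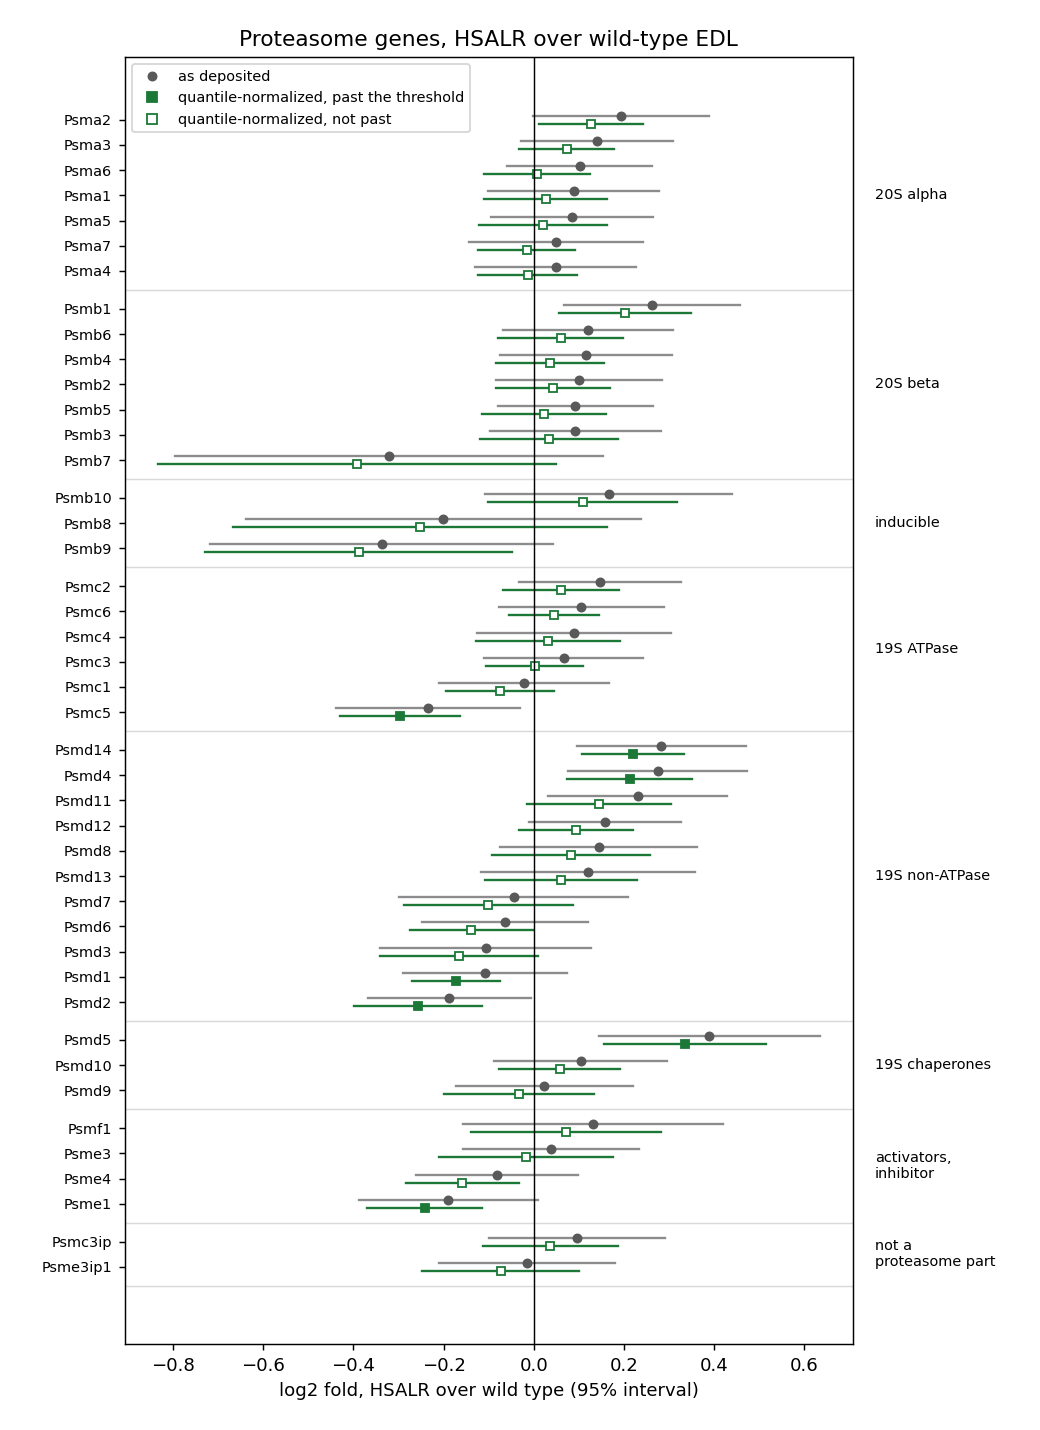
Log2 fold of HSALR over wild type for each of the 43 measured members, grouped by role, with 95% intervals from limma. Circles show the values as deposited and squares those after quantile normalization, filled where the adjusted p passed 0.05. Most members lie within 0.3 of 0 on both scales, and the 7 filled squares lie on both sides of 0.

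The 7 measured genes of the alpha ring all had a log2 fold above 0 as deposited, between 0.05 and 0.19, and none passed the test on either scale. The highest was that of Psma2. Its log2 signal as deposited had a lowest value of 10.77, a median of 11.24 and a highest of 11.41 in HSALR samples, against 10.81, 10.96 and 11.23 in wild-type samples. The groups overlapped, with 6 HSALR samples above every wild-type sample. Its log2 fold was 0.19 ± 0.09 (SE; limma adjusted p = 0.249), and 0.13 ± 0.06 after quantile normalization (adjusted p = 0.126). The lowest was that of Psma4, with values between 10.58 and 11.12 in HSALR samples and between 10.64 and 11.03 in wild-type samples. The other members of the ring, Psma3, Psma6, Psma1, Psma5 and Psma7, had log2 folds of 0.14, 0.10, 0.09, 0.08 and 0.05. Quantile normalization turned the sign of Psma4 (-0.01) and Psma7 (-0.02).

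Among the 7 constitutive genes of the beta ring, 6 had a log2 fold between 0.09 and 0.26 and 1, Psmb7, had -0.32, and none passed the test on either scale. Psmb1, a structural beta subunit, had the highest fold. Its log2 signal had a lowest value of 10.87, a median of 11.10 and a highest of 11.53 in HSALR samples, against 10.66, 10.81 and 11.21 in wild-type samples. All 10 HSALR samples lay above the wild-type mean, but wild-type replicate 8, at 11.21, lay above all HSALR samples other than replicate 8. Its log2 fold was 0.26 ± 0.09 (SE; limma adjusted p = 0.111), and 0.20 ± 0.07 after quantile normalization (adjusted p = 0.0562). Without HSALR replicates 9 and 10 the quantile-normalized fold of Psmb1 was 0.23 and passed (adjusted p = 0.0467). The 2 dimmer probe sets of Psmb1 had log2 folds of -0.05 and 0.18 as deposited. Psmb2, Psmb3 and Psmb4, which carry no active site, had log2 folds of 0.10, 0.09 and 0.12.

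The ATPase ring of the regulatory particle held 6 genes, and Psmc5 was the one that changed after quantile normalization. Its log2 signal as deposited had a lowest value of 10.31, a median of 10.58 and a highest of 11.13 in HSALR samples, against 10.606, 10.808 and 11.003 in wild-type samples. As deposited 9 of 10 HSALR samples lay below the wild-type mean, and HSALR replicate 8, the array with the highest median signal, lay above every wild-type sample. The fold of Psmc5 was -0.23 ± 0.10 (SE; limma adjusted p = 0.178).
After quantile normalization the values of Psmc5 ran from 10.41 to 10.80 with a median of 10.52 in HSALR samples, against 10.61 to 10.94 with a median of 10.88 in wild-type samples. All 10 HSALR samples then lay below the wild-type mean and 7 below every wild-type sample. Wild-type replicate 8 was the low one, at 10.61, and the other 8 wild-type samples lay between 10.86 and 10.94. The quantile-normalized fold was -0.30 ± 0.06 (limma adjusted p = 0.0039), a level 18.6% lower in HSALR on the scale of signal + 16. The other 5 ATPase genes, Psmc2, Psmc6, Psmc4, Psmc3 and Psmc1, had log2 folds of 0.15, 0.11, 0.09, 0.07 and -0.02 as deposited and none passed. For Psmc2, the highest of them, values ran from 11.54 to 12.04 with a median of 11.84 in HSALR samples and from 11.43 to 11.90 with a median of 11.71 in wild-type samples. A second probe set of Psmc2, nearly as bright, had a log2 fold of 0.01 as deposited and -0.06 after quantile normalization. The other tested probe sets of Psmc6 had -0.09 and -0.10 as deposited, and that of Psmc4 had 0.12.

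The 11 non-ATPase genes of the regulatory particle are the largest role group and held 4 of the 7 members that passed after quantile normalization. They were 2 in each direction, against 7.09% of all genes higher and 8.39% lower, and the count is not read as a result about the group. Psmd14 encodes the metalloprotease that removes ubiquitin chains from the substrate at the entry of the core. Its log2 signal as deposited had a lowest value of 10.66, a median of 10.87 and a highest of 11.27 in HSALR samples, against 10.50, 10.62 and 10.79 in wild-type samples. All 10 HSALR samples lay above the wild-type mean and 6 above every wild-type sample. The log2 fold of Psmd14 was 0.28 ± 0.09 (SE; limma adjusted p = 0.0722). After quantile normalization the values of Psmd14 ran from 10.77 to 11.14 in HSALR samples and from 10.58 to 10.75 in wild-type samples, so the groups did not overlap, which held for 0.867% of all genes in that direction. The quantile-normalized fold of Psmd14 was 0.22 ± 0.05 (adjusted p = 0.0100), a level 16.5% higher in HSALR. Psmd14 was represented by 1 tested probe set.

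Psmd4 encodes a ubiquitin receptor of the particle. Its log2 signal as deposited had a lowest value of 10.55, a median of 10.86 and a highest of 11.28 in HSALR samples, against 10.42, 10.68 and 10.75 in wild-type samples. The groups overlapped, with 8 HSALR samples above every wild-type sample. The fold of Psmd4 was 0.27 ± 0.10 (SE; limma adjusted p = 0.0975), and 0.21 ± 0.07 after quantile normalization (adjusted p = 0.0357). A second probe set of Psmd4, nearly as bright, had log2 folds of 0.11 as deposited and 0.05 after quantile normalization and did not pass (adjusted p = 0.628 and 0.736). Psmd4 was also the call that moved most with the samples used: it did not pass in 8 of 19 quantile-normalized fits that left out 1 sample, where its adjusted p lay between 0.0200 and 0.0679.

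Psmd1 and Psmd2 encode the large scaffold subunits of the base of the particle, and both fell after quantile normalization. As deposited the log2 signal of Psmd1 had a lowest value of 10.79, a median of 11.06 and a highest of 11.42 in HSALR samples, against 11.01, 11.15 and 11.32 in wild-type samples, and the groups overlapped. As deposited the fold of Psmd1 was -0.11 ± 0.09 (SE; limma adjusted p = 0.520).
After quantile normalization Psmd1 ran from 10.92 to 11.13 in HSALR samples and from 11.13 to 11.25 in wild-type samples. The groups did not overlap, although the highest HSALR sample and the lowest wild-type sample were less than 0.01 apart, and 1.12% of all genes had no overlap in that direction. The quantile-normalized fold of Psmd1 was -0.17 ± 0.05 (adjusted p = 0.0173), a level 11.3% lower in HSALR. With no filter on low signal this fold did not pass (adjusted p = 0.0522).
Psmd2 had as deposited a lowest log2 signal of 10.93, a median of 11.31 and a highest of 11.57 in HSALR samples, against 11.26, 11.52 and 11.71 in wild-type samples, with 9 of 10 HSALR samples below the wild-type mean. Its log2 fold was -0.19 ± 0.09 (SE; limma adjusted p = 0.225) as deposited and -0.26 ± 0.07 (adjusted p = 0.0150) after quantile normalization. The other genes of this group, Psmd11, Psmd12, Psmd8, Psmd13, Psmd7, Psmd6 and Psmd3, had log2 folds of 0.23, 0.16, 0.14, 0.12, -0.04, -0.06 and -0.11 as deposited and did not pass on either scale with all 19 samples. Without HSALR replicates 9 and 10, Psmd12 passed after quantile normalization (0.16, adjusted p = 0.0286).

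The chaperones Psmd5, Psmd9 and Psmd10 bind the ATPases while the base of the particle is assembled and leave before it is complete. Psmd5 had the largest positive fold of all members. Its log2 signal as deposited had a lowest value of 7.87, a median of 8.44 and a highest of 8.94 in HSALR samples, against 7.73, 8.10 and 8.42 in wild-type samples. The groups overlapped, with 6 HSALR samples above every wild-type sample and 9 of 10 above the wild-type mean. On the log2 scale its fold was 0.39 ± 0.12 (SE; limma adjusted p = 0.0578), and 0.34 ± 0.09 after quantile normalization (adjusted p = 0.0125), a level 26.2% higher in HSALR on that scale. Psmd5 lies near the threshold as deposited: it passed without wild-type replicate 1 and without HSALR replicate 5. Psmd10 and Psmd9 had log2 folds of 0.10 and 0.02 and did not pass. The values of Psmd9 ran from 7.59 to 8.27 in HSALR samples and from 7.64 to 8.18 in wild-type samples, and its sign turned after quantile normalization (-0.03).

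Among the genes for activators and the inhibitor, Psme1 fell after quantile normalization. Psme1 encodes a subunit of the interferon-inducible activator that opens the core without ubiquitin. Its log2 signal as deposited had a lowest value of 9.61, a median of 10 and a highest of 10.34 in HSALR samples, against 9.96, 10.20 and 10.35 in wild-type samples, and 9 of 10 HSALR samples lay below the wild-type mean. Its log2 fold was -0.19 ± 0.10 (SE; limma adjusted p = 0.264) as deposited and -0.24 ± 0.06 (adjusted p = 0.0111) after quantile normalization. Psme3, the activator of the nucleus, had a log2 fold of 0.04 as deposited and -0.02 after quantile normalization. Psmf1, which encodes an inhibitor of the core, had a log2 fold of 0.13 ± 0.14, with values from 7.22 to 8.35 in HSALR samples and from 7.18 to 8.14 in wild-type samples.
Psme4 encodes the large activator PA200. Its brightest probe set had a log2 fold of -0.16 after quantile normalization and did not pass (adjusted p = 0.0824), while 2 of its 4 dimmer tested probe sets did, with -0.29 (adjusted p = 0.0083) and -0.39 (adjusted p = 0.0371). These 2 and the 7 brightest probe sets named above were the 9 of 75 tested member probe sets that passed, against 14.8% of all probe sets. As deposited 0 of the 75 passed, against 5.06%.

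**Figure D2:**
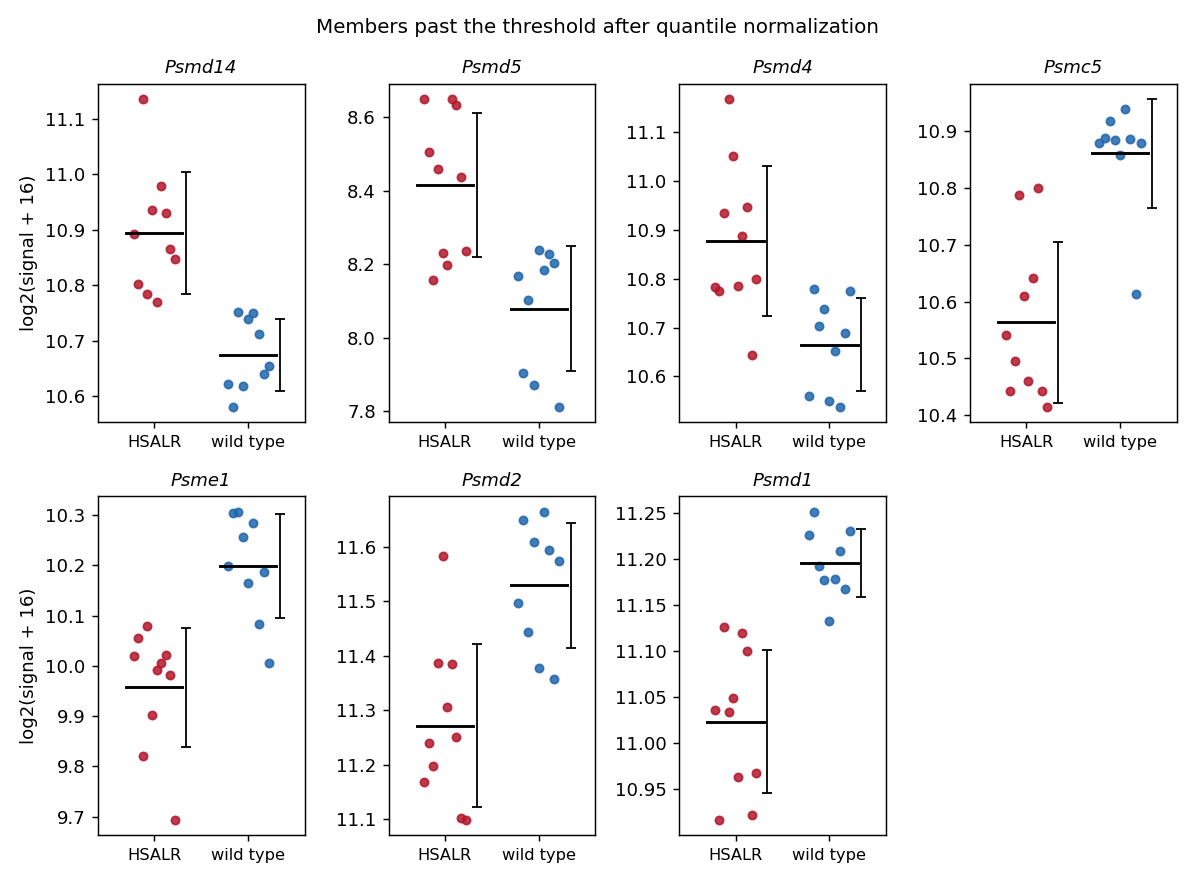
Quantile-normalized log2(signal + 16) in each HSALR sample (red, left) and wild-type sample (blue, right) for the 7 members past the threshold on that scale. Lines are group means and bars are SDs (n = 10 HSALR, 9 wild type). Psmd14 and Psmd1 show no overlap, and 1 wild-type sample of Psmc5 lies at 10.61 among the HSALR values.

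Without HSALR replicates 9 and 10, 0 of the 43 members passed as deposited, beside 241 higher and 212 lower of the 11533 genes tested. After quantile normalization 9 passed, the 7 above with Psmb1 and Psmd12, beside 664 higher and 702 lower of the 11533 genes. The counts are not read as a result about the members. The folds of the 7 on that scale were then 0.23 for Psmd14, 0.36 for Psmd5, 0.25 for Psmd4, -0.26 for Psmc5, -0.21 for Psme1, -0.21 for Psmd2 and -0.15 for Psmd1. The folds of all 7 thus kept their sign and their side of the threshold without the 2 arrays that stood apart.

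The promoters of 4 of these genes are shown because they belong to the 3 members that passed in each alternative run after quantile normalization (Psmd14, Psmd5 and Psmc5) and to Psmd1, the other member with no overlap between the groups. Each is 250 bases before to 50 bases after the start of the gene on its own strand, from RefSeq on GRCm38.p6. Psmd14 lies at chr2:61711444-61711743 on the plus strand and Psmd5 at chr2:34870913-34871212 on the minus strand. Psmc5 lies at chr11:106255935-106256234 and Psmd1 at chr1:86064369-86064668, both on the plus strand. Capitals mark the CCAAT box on either strand (CCAAT or ATTGG).
Psmd14: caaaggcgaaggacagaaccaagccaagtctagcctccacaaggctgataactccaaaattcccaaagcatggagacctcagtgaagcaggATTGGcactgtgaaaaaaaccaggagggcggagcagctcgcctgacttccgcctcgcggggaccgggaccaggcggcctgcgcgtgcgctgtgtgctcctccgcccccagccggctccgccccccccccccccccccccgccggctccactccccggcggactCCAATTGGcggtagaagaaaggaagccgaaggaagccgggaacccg
Psmd5: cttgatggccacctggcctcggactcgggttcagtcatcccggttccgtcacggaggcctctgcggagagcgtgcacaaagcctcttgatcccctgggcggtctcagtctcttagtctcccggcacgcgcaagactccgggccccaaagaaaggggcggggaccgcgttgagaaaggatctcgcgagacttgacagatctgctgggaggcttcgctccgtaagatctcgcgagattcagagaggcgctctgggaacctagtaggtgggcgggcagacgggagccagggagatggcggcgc
Psmc5: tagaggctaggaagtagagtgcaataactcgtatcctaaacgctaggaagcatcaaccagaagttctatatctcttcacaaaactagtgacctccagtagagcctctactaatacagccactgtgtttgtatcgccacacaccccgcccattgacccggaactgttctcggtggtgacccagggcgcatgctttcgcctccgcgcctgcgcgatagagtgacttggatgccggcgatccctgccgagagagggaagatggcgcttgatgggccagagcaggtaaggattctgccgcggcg
Psmd1: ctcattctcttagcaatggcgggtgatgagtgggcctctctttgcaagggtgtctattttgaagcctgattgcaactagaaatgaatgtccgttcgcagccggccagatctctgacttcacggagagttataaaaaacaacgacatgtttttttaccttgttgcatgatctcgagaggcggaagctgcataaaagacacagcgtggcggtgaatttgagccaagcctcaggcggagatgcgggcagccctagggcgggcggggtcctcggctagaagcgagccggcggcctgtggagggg
Psmd14 held 3 matches to the CCAAT box, of which 2 overlap on opposite strands, and the other 3 windows held none. Of the 43 proteasome genes on the array, Psma8 and Psmb11 included, 36 had a promoter in the table, and 14 of the 36 held a CCAAT box, against 37.4% of all 32851 promoters of this length. The core of the antioxidant response element (TGACNNNGC, both strands), the kind of site that the factor Nrf1 (Nfe2l1) binds in proteasome genes, was in 6 of the 36, Psmd9, Psme4, Psmb6, Psmd12, Psmc6 and Psmb5, against 12.4% of all promoters. The gamma-activated site (TTCNNNGAA, both strands), a site of the interferon response, was in 2 of the 36, Psmd2 and Psmb8, against 8.30% of all promoters. A match is a match of letters only, and a window without one says nothing of the factor.

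Psmb8, Psmb9 and Psmb10 encode the catalytic subunits of the immunoproteasome, which interferon gamma induces and which replace Psmb5, Psmb6 and Psmb7 in newly built cores. None of the 6 genes differed between HSALR and wild type by the test on either scale. Psmb8 had as deposited a lowest log2 signal of 6.86, a median of 7.37 and a highest of 8.07 in HSALR samples, against 6.55, 7.54 and 8.44 in wild-type samples. The wild-type range enclosed that of HSALR. The log2 fold of Psmb8 was -0.20 ± 0.21 (SE; limma adjusted p = 0.639), and -0.25 after quantile normalization (adjusted p = 0.424). Psmb9 had a lowest value of 6.52, a median of 6.83 and a highest of 7.65 in HSALR samples, against 6.61, 7.20 and 8.09 in wild-type samples. Its log2 fold, -0.34 ± 0.18, was the most negative of all members as deposited and did not pass (limma adjusted p = 0.305), nor did it after quantile normalization (-0.39, adjusted p = 0.115). Psmb10 had a lowest value of 7.76, a median of 8.16 and a highest of 8.59 in HSALR samples, against 7.61, 8.00 and 8.49 in wild-type samples, with a log2 fold of 0.17 ± 0.13 (adjusted p = 0.509). The median SE of these 3 log2 folds was 0.18, about 2 times that of the alpha ring (0.09), so the test was less precise for them.

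Of the constitutive counterparts, Psmb5 (the chymotrypsin-like site) and Psmb6 (the caspase-like site) spread less widely than Psmb7. Psmb5 had a lowest log2 signal of 10.98, a median of 11.31 and a highest of 11.51 in HSALR samples, against 11.12, 11.15 and 11.33 in wild-type samples, and a log2 fold of 0.09 ± 0.08 (limma adjusted p = 0.573). Psmb6 had 10.59, 10.92 and 11.35 in HSALR samples, against 10.60, 10.78 and 10.94 in wild-type samples, and a log2 fold of 0.12 ± 0.09 (adjusted p = 0.481).
Psmb7 (the trypsin-like site) spread more widely than any other constitutive core gene. Its log2 signal had a lowest value of 9.70, a median of 10.50 and a highest of 10.90 in HSALR samples, against 9.87, 10.51 and 11.71 in wild-type samples. Wild-type replicates 1, 2 and 3, at 11.71, 11.36 and 11.41, lay above every other sample, while the other 6 wild-type samples lay between 9.87 and 10.64, within the HSALR range. The log2 fold of Psmb7 was -0.32 ± 0.23 (SE; limma adjusted p = 0.453), and the 2 group medians differed by less than 0.01. The plot of the catalytic subunits shows these wild-type samples apart from the rest.

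**Figure D3:**
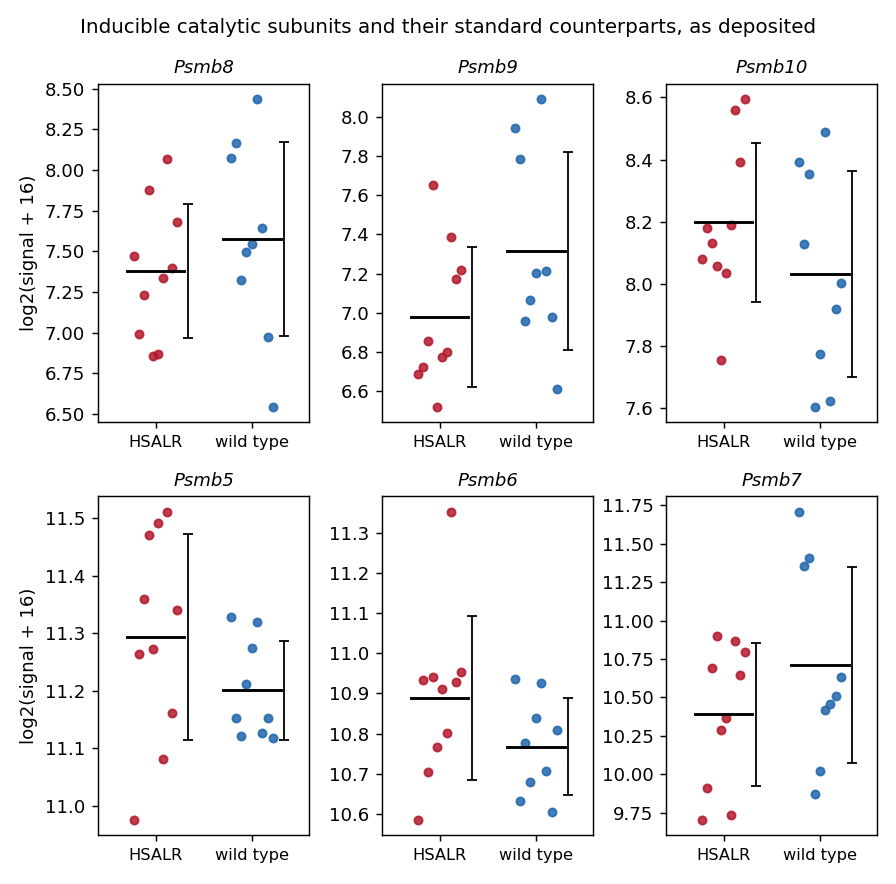
Log2(signal + 16) as deposited in each HSALR sample (red, left) and wild-type sample (blue, right) for the immunoproteasome genes (top row) and the constitutive genes that they replace (bottom row). Lines are group means and bars are SDs (n = 10 HSALR, 9 wild type). The groups overlap in all 6 panels, and 3 wild-type samples of Psmb7 lie at 11.36 to 11.71, above all others.

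Psmb8 and Psmb9 varied together among samples of the same group. The correlation of their deviations from the group means was 0.89 over 19 samples (Pearson, quantile-normalized), the highest of all pairs of members. The arrays are shared by all genes, and no test was made of it. The mean correlation of Psmb8, Psmb9 and Psmb10 was 0.52 with and without HSALR replicates 9 and 10. The mean deviation of Psmb8, Psmb9 and Psmb10 from the wild-type mean lay between -0.49 and 0.20 in HSALR samples and between -0.56 and 0.67 in wild-type samples. Wild-type replicates 6 and 2 had the highest values, 0.67 and 0.40, and wild-type replicate 9 the lowest, -0.56. A list of genes for antigen presentation and the interferon response, with 12 measured members such as Tap1, B2m and Irf1, had values of 0.40, 0.51 and -0.48 in the same 3 samples, and lay between -0.44 and 0.30 in HSALR samples. In HSALR replicates 1, 7, 9 and 10 the list had 0.23, -0.12, 0.08 and 0.11. There the immunoproteasome genes had the opposite sign, -0.17, 0.03, -0.21 and -0.10. In all other samples the 2 signs were the same. None of the 12 passed the test on either scale. Of 5 T cell markers on the array 1 was measured, Cd8a, and its log2 fold was 0.13 (adjusted p = 0.634). Macrophage markers were highest in HSALR replicates 9 and 10. Of the 14 measured, 2 were higher in HSALR as deposited, against 3.11% of all genes, and 4 after quantile normalization, against 7.09%. In those 2 HSALR samples the 3 immunoproteasome genes had mean deviations of -0.21 and -0.10.

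The 31 subunits that form the 20S core and the 19S particle, without the inducible ones, were summarised as a mean deviation from wild type per sample. As deposited it lay between -0.23 and 0.40 in HSALR samples, with an SD of 0.18, and between -0.11 and 0.17 in wild-type samples, with an SD of 0.09. After quantile normalization it lay between -0.15 and 0.10 in HSALR samples, with a mean of -0.001 and an SD of 0.09, and between -0.06 and 0.03 in wild-type samples, with an SD of 0.03. The HSALR mean lay within the wild-type range on that scale, and the HSALR samples spread more widely. The lowest values were those of HSALR replicates 9 and 10, at -0.15 and -0.11. The other 8 HSALR samples lay between -0.05 and 0.10. The deviation of the macrophage markers in the same 2 samples is given above, and that of 8 fibroblast markers was 1.74 and 1.72 there, against -0.61 to 0.54 in the other 8 HSALR samples and -0.34 to 0.49 in wild type. Their part in the lower proteasome values was not tested.

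**Figure D4:**
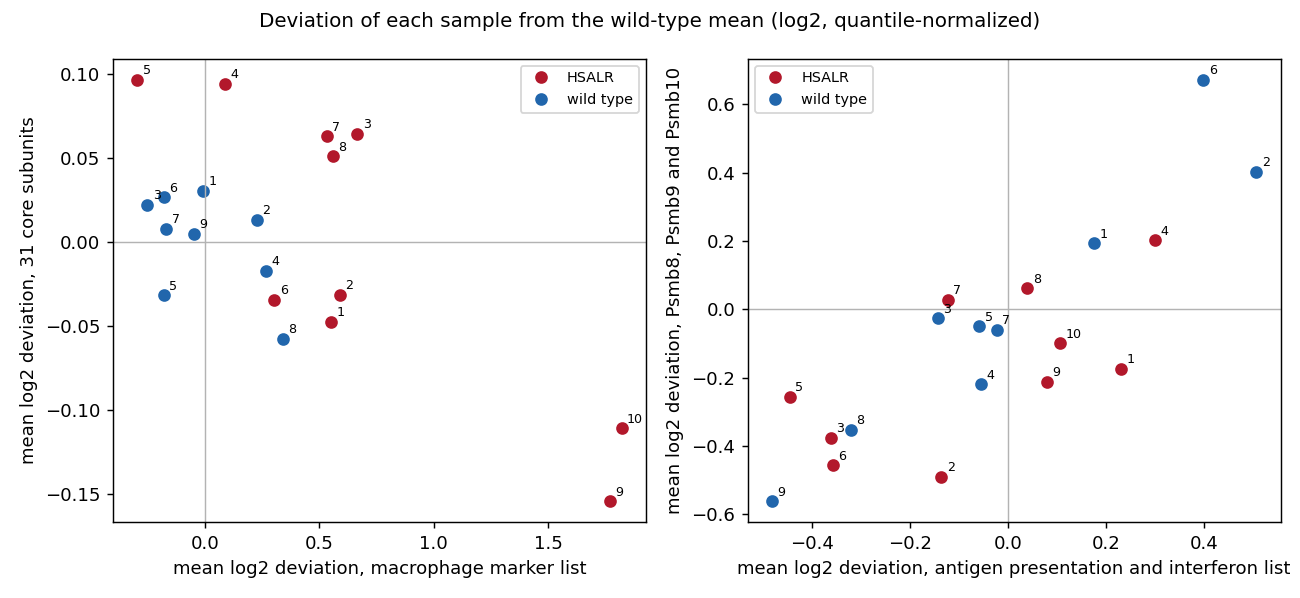
Mean log2 deviation of each sample from the wild-type mean after quantile normalization, with HSALR in red and wild type in blue and replicate numbers beside the points. On the left the 31 core subunits are set against the macrophage markers, with HSALR replicates 9 and 10 at the lower right. On the right the mean of Psmb8, Psmb9 and Psmb10 is set against the antigen presentation and interferon list, with wild-type replicates 6 and 2 at the upper right.

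Within groups the core subunits had higher correlations with each other than genes at large. The mean Pearson correlation between pairs of the 31 subunits, computed on deviations from the group means over 19 samples, was 0.63 as deposited and 0.26 after quantile normalization, against 0.33 and 0.01 over all genes. Without HSALR replicates 9 and 10 the quantile-normalized mean was 0.10 over 17 samples, against 0.004 over all genes. By role and over all 19 samples it was 0.37 among the non-ATPase genes, 0.28 among the ATPase genes, 0.22 in the alpha ring and 0.21 in the beta ring. Psmd12, a subunit of the lid of the particle, had the highest mean correlation with the other core subunits, 0.43. Psmf1 and Psma2 had the lowest, -0.07 and -0.05. The highest pairs after Psmb8 with Psmb9 were Psma5 with Psmb2 (0.83) and Psma6 with Psmd12 (0.82), and the lowest were Psmb3 with Psmb7 (-0.72) and Psma2 with Psmc3 (-0.70). These are descriptions over shared arrays, and the mean over all pairs depends on the scale as stated. The core subunits were brighter than genes at large, and the comparison was not matched for signal.

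**Figure D5:**
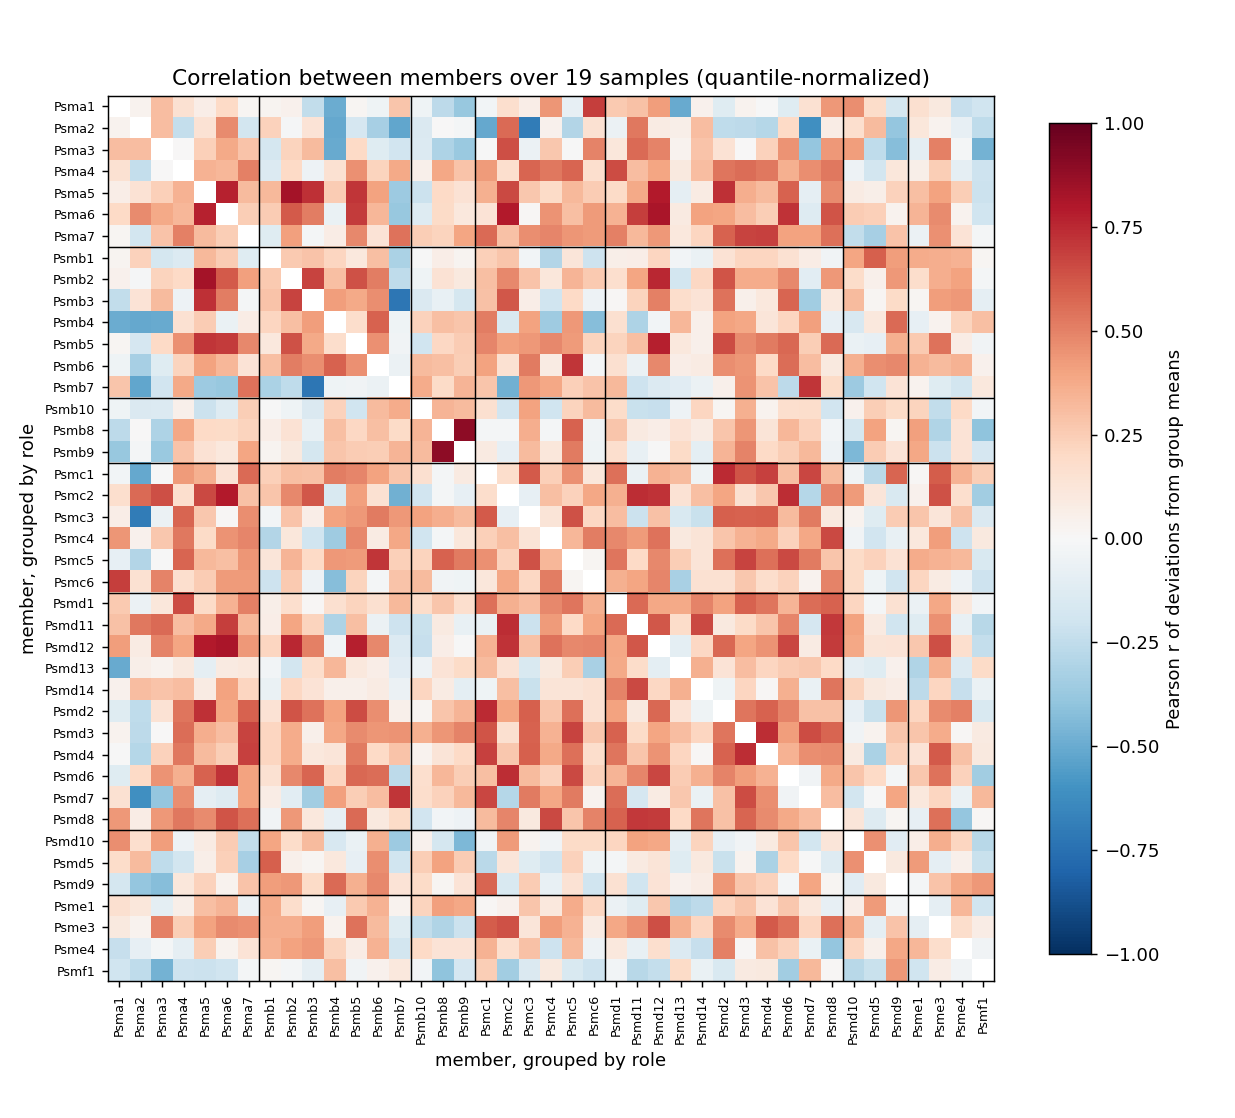
Pearson correlation between 41 members over 19 samples, of deviations from the group means after quantile normalization, with members ordered by role and lines between roles. Red cells are positive and blue cells negative. The pair of Psmb8 and Psmb9 is the darkest red cell, and Psmb7 and Psma2 have many blue cells with other core subunits.

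The counts for the lists around the proteasome stand beside 5.42% of all genes called in either direction as deposited and 15.5% after quantile normalization, and nothing particular to a list is read from them. Of 13 partners and assembly factors, such as Sem1, Pomp and Usp14, 0 passed as deposited and 1 rose after quantile normalization. It was Akirin2, which carries proteasomes into the nucleus, with a log2 fold of 0.28 as deposited (limma adjusted p = 0.0934) and 0.23 after quantile normalization (adjusted p = 0.0344). Of 10 genes for ubiquitin activation and shuttle factors, 0 passed as deposited and 2 fell after quantile normalization. They were Ufd1, a cofactor of the segregase Vcp, and Sqstm1, the autophagy receptor, each with a fold of -0.23 on that scale (adjusted p = 0.0411 and 0.0371).
Of 10 regulators of proteasome genes, 0 passed as deposited, and 1 rose and 1 fell after quantile normalization. Foxo3, a transcription factor of muscle wasting, had a fold of 0.37 (adjusted p = 0.0288) and Foxo4 one of -0.46 (adjusted p = 0.0133) on that scale. Nfe2l1, the factor that induces proteasome genes when proteasome activity is low, had a log2 fold of 0.12 ± 0.12 (SE; adjusted p = 0.630).
Of 12 ubiquitin ligases of muscle, 0 passed as deposited and 2 fell after quantile normalization, Asb2 (-0.55, adjusted p = 0.0170) and Trim54 (-0.26, adjusted p = 0.0195). The ligases best known from muscle atrophy did not pass on either scale. Fbxo32 had a log2 fold of -0.17 ± 0.23 (adjusted p = 0.723) and Trim63 one of 0.34 ± 0.15 (adjusted p = 0.182).

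Probe sets of the same gene were compared where a gene had more than 1. Of the 20 member genes with 2 or more tested probe sets, none passed limma's diffSplice for a difference in fold between its probe sets, and the smallest adjusted p was that of Psmb1, 0.447 as deposited and 0.232 after quantile normalization. Over all 4782 genes with 2 or more tested probe sets, 91 passed as deposited and 375 after quantile normalization. For 21 of the 45 members there was 1 probe set, so their values could not be set against a second one. The same holds for members with several probe sets of which 1 was tested, such as Psmd2, Psmb8, Psmc1 and Psmd7. Of the 7 members that passed after quantile normalization, only Psmd4 had a second tested probe set. That probe set did not pass (limma adjusted p = 0.736).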

How the data were processed

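Each deposited array file pairs 45101 probe sets with an intensity on a linear scale, 1 array per sample, and the submitters' processing notes name GCOS 1.4. How signals were computed and scaled is not stated in the labels or notes, and the deposited intensities of the arrays differ in level (median signal between 39.7 and 71.9). Values were used as log2(value + 16), on which the folds of dim genes come out too small. The 64 control probe sets and those with a mean log2 value under 6.09 were left out, which left 22519. Without the control probe sets 45037 remained, of which 34945 had 1 gene symbol in the platform annotation, 932 several and 9160 are unnamed here.

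HSALR was compared with wild type in limma 3.58.1 (R 4.3.3, lmFit and eBayes, 2-sided) over all 19 samples as deposited, with Benjamini-Hochberg adjustment over all tested probe sets, and again after quantile normalization of these probe sets. Genes were counted through their brightest probe set, 11533 in all. On simulated data of this comparison with 22519 probe sets, the fit found 37 of 50 probe sets changed 1.5-fold, 45 of 50 changed 2-fold, 49 of 50 changed 3-fold and 47 of 50 changed 4-fold, and it called 8 unchanged ones. Changes under 1.5-fold, such as those of all members, were not simulated. The simulated noise was independent between probe sets, without shifts shared by an array. Promoters and motif counts come from RefSeq on GRCm38.p6. The members, the role groups and the other lists were chosen with earlier results of these data known. Every member is named with its result. Values by sample are given for the members past the threshold on either scale, for the catalytic subunits and for the highest and lowest fold of each role, and other lists give up to 4 genes past the threshold, with Nfe2l1, Fbxo32 and Trim63. The labels do not say whether replicate numbers pair the samples. Deviations of same-numbered samples as deposited correlated between -0.24 and 0.13. These deviations carry the level of each array, so they cannot decide the question. Alternatives were pseudocounts of 1 and 64, other filters, median centring, a replicate block, trend and robust variance, array weights, a covariate for the 3'/5' ratio, the mean over probe sets and leaving out samples. Those on the quantile-normalized scale were added after the data were seen.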

Additional observations from a re-analysis of the deposited data

Results flagged for a closer look

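Of 86 tests for a sample far from the rest of its group (43 members in 2 groups, Dixon's gap over range), 8 passed as deposited. Chance flags about 1 in 20 such groups. The members share the arrays and their level, so the tests are not independent and the count cannot show an excess. In HSALR, replicate 8 was the high sample for Psmb1, at a log2 signal of 11.528 with the next at 11.165, and for Psmb6, at 11.352 with the next at 10.954. In wild type, replicate 1 was the high sample for Psma1 (11.275), Psmc4 (11.119) and Psmd8 (11.006). Wild-type replicate 8 was high for Psmb1 (11.211), wild-type replicate 6 was high for Psmd6 (12.458), and wild-type replicate 3 was low for Psmd13 (8.6448). HSALR replicate 8 and wild-type replicate 1 had the highest median signal of their groups, 7.96 and 7.95. After quantile normalization 4 tests passed: Psmf1 in HSALR (replicate 1 low, 7.30), and in wild type Psmb1 (replicate 8 high, 11.2), Psmc5 (replicate 8 low, 10.6) and Psmd9 (replicate 4 low, 7.70). Their cause was not tested.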

How the results depend on the processing

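The scaling moved the calls most. As deposited 0 of 43 members were called in limma, with 7 at an unadjusted p under 0.05, against 7 called after quantile normalization and 4 after median centring (Psmd14 and Psmd5 higher, Psmc5 and Psme1 lower). With array weights 5 were called, all higher (Psmd14, Psmd5, Psmd4, Psmd11 and Psmd12), and 2 with a pseudocount of 64, in the 11260 brightest probe sets and with trend and robust variance (Psmd14 and Psmd5 in each). Once the 3'/5' ratio was a covariate, 1 was called, Psmd5, and without HSALR replicates 9 and 10 after quantile normalization 9. Leaving out 1 sample gave 0 to 2 members: Psmd5 without wild-type replicate 1, Psmd14 without HSALR replicate 1, both without HSALR replicate 5 and Psmc5 (lower) without HSALR replicate 8. Over all probe sets, 1140 were called as deposited (645 higher, 495 lower), 3342 after quantile normalization (1485, 1857), 2937 after median centring (1364, 1573), 2878 with array weights (2278, 600), 2169 with the covariate (1705, 464), 2490 without HSALR replicates 9 and 10 after quantile normalization (1176, 1314) and 858 to 2067 without 1 sample, with 2067 without HSALR replicate 5. The median log2 fold of the members, 0.09, lay between 0.06 and 0.11 without 1 sample.

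Whether the replicate numbers pair the samples is not known, and replicates 1, 6 and 7 alone matched their own number best. With the replicate block 716 probe sets and 0 members were called as deposited (0 without the block), and after quantile normalization 3 members were called, Psmd14, Psmd5 and Psmc5, against 7. Psmd14, Psmd5 and Psmc5 passed in all 29 alternatives run on the quantile-normalized scale, where leaving out 1 sample gave 6 to 8 members. Psmd2 and Psme1 missed the threshold with the block (adjusted p = 0.0709 and 0.0586), Psmd1 with the block (0.0993) and with no filter (0.0522), and Psmd4 in 12 of 29, with adjusted p between 0.0137 and 0.194 over them.

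Of the 43 members, 34 kept the sign of their log2 fold in all alternatives run as deposited or with another scaling, and 9 did not, with folds as deposited between -0.04 and 0.13. Psmc6 and Psmf1 turned in the mean over probe sets alone. Quantile normalization and median centring gave -0.0136 and -0.0055 for Psma4, -0.0162 and -0.0041 for Psma7, -0.0333 and -0.0300 for Psmd9, and -0.0180 and -0.0151 for Psme3. The mean over probe sets gave -0.0087 for Psma7, -0.0256 for Psmc6, -0.0180 for Psmd9 and -0.0097 for Psmf1. Array weights gave 0.0148 for Psmc1. Without HSALR replicates 9 and 10 Psmd9 was at -0.0195, and -0.0220 with quantile normalization. Without 1 sample, Psmd9 lay between -0.0155 and 0.0594, Psmc1 between -0.0603 and 0.0221, Psmd7 between -0.1101 and 0.0158, and Psme3ip1 between -0.0698 and 0.0229. The causes were not tested. The median standard error of a member's log2 fold, 0.09 as deposited and 0.07 after quantile normalization, limits the size of change that could be seen, and Psmb8 and Psmb9, among the dimmest members, had standard errors of 0.21 and 0.18 as deposited.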
